A study of Rattus norvegicus with 87 samples.

Results

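Penk and Sst, the genes of the neuropeptide precursors proenkephalin and preprosomatostatin, were followed across Heterogeneous Stock (HS) rats in a small epithalamic nucleus, the lateral habenula (LHb). They were chosen by identifier, ENSRNOG00000008943 for Penk and ENSRNOG00000001837 for Sst, and are 2 of the 17512 genes with a row in the deposited table. Polyadenylated RNA had been sequenced from bulk tissue taken by hand from frozen brain sections, with both sides of a rat pooled into 1 sample. HS rats are an outbred population descended from inbred founder strains, and all of these rats were untreated, untested and group housed. The labels give no age. The labels give no treatment groups, so rats were grouped by sex and by the rat batch named in the labels, whose meaning the labels do not give. The table held 81 rats, 41 males and 40 females. Males and females numbered 11 and 4 in batch 2, 10 and 12 in batch 3, 12 and 15 in batch 4, and 8 and 8 in batch 6, while batch 5 was a single female. The remaining 6 of the 87 labelled samples had been removed by the authors. Each sample is a separate rat, and replicate numbers only name the rats.

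Proenkephalin is cut by prohormone convertases in secretory granules into Met- and Leu-enkephalin, opioid peptides that act mainly on delta and mu receptors. Preprosomatostatin is cut into somatostatin peptides, which act on inhibitory G protein-coupled receptors and are made in many brain regions by subsets of GABAergic neurons. The LHb itself is built largely of glutamatergic projection neurons that send output to midbrain monoamine systems, and it lies beside the medial habenula, thalamus and hippocampal formation. In bulk RNA, fewer cells that express a gene and less RNA in each cell cannot be told apart. The tissue label was not checked against marker genes, because the reference used here gave a symbol to none of the other identifiers of the table.

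The Sst gene start is shown because its cyclic AMP response element, the letters TGACGTCA, is a textbook binding site of the transcription factor CREB. In the RefSeq sequence of assembly GRCr8, the 300 bases from 250 before to 50 after the annotated start of Sst lie at chr11:90461296-90461595 on the plus strand. The element occurred 1 time there, at bases 3 to 10 counted from the annotated start. That start was not checked against measured starts of transcription, so whether the element is itself transcribed was not tested. The 30 bases around it, chr11:90461537-90461566, are given 5′ to 3′ with the element in capitals.
Sst: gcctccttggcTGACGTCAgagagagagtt
The element is its own reverse complement, so the match stands on both strands. It was present in 612 of 33469 such windows, or 1.83% of them. The shorter letters TGACG, which are contained in it, were found on either strand in 21.2% of windows. The match describes letters only, and no binding was measured. Penk was not matched in the sequence table.

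Values are log2(normalized count + 1), where a normalized count is an estimated read count that the authors had scaled to a common upper quartile. Both transcripts were detected in every rat, and both varied widely. Penk ranged from 6.29 to 8.97 with a median of 7.65 and a mean of 7.55 ± 0.56 (SD, n = 81). As normalized counts, this was 77 to 499 with a median of 200, a span of 6.48-fold. Sst ranged from 4.91 to 7.90 with a median of 6.58 and a mean of 6.48 ± 0.63 (SD, n = 81). Its normalized counts were 29 to 238 with a median of 95, a span of 8.21-fold. These values are not divided by transcript length, so the levels of the 2 genes are not compared with each other.

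The total of reads assigned to the genes of the table, called depth here, was recovered from the scaled values in 69 of 81 rats. It was 5.74 M to 35.2 M reads with a median of 18.3 M. In those rats, Penk rested on 60 to 455 reads and Sst on 26 to 253 reads. The counting error on the log2 scale had a median of 0.103 for Penk and 0.155 for Sst, against SDs between rats of 0.56 and 0.63. A rat had between 296 and 1661 genes listed at 0, and 9 rats had over 1000.

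The rats at the ends of the range were often the same for both peptides. Female rat 10 of batch 3 had the highest Sst at 7.90 and the third-ranked Penk at 8.60. Male rat 16 of batch 4 was second in both, with Penk at 8.65 and Sst at 7.75. Male rat 33 of batch 6 had the lowest Penk at 6.29 and an Sst of 5.13, which only 1 rat went below. Of the 20 rats with the highest Penk, 12 were among the 20 with the highest Sst and 1 was among the 20 with the lowest. Of the 20 rats with the lowest Penk, 10 were among the 20 with the lowest Sst and 1 was among the 20 with the highest. Some rats departed from this. Male rat 41 of batch 2 had the highest Penk at 8.97, but its Sst of 7.10 ranked 15. Female rat 34 of batch 4 had the lowest Sst at 4.91 with a Penk of 7.24, and female rat 35 of the same batch had a Penk of 6.95 with an Sst of 7.15. Those 2 rats mark the ends of the difference Penk minus Sst, at 2.33 and -0.20, around a median of 1.04.

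**Figure D1:**
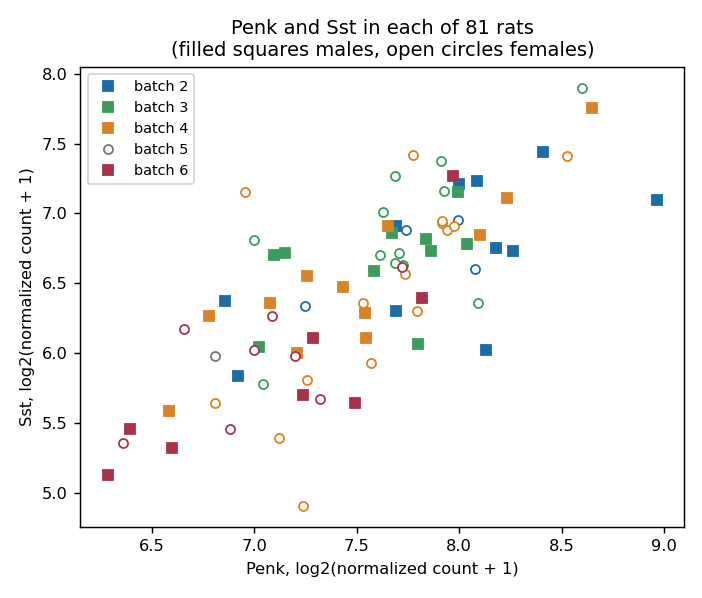
Penk (horizontal axis) and Sst (vertical axis), both as log2(normalized count + 1), in each of 81 rats, with rat batches in colour, males as filled squares and females as open circles. Rats with higher Penk had higher Sst, and batch 6 rats lie mostly at the lower left.

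The correlation between the 2 transcripts asks whether they varied together from dissection to dissection. After sex and batch means were removed, Penk and Sst were correlated across 80 rats with Pearson's r = 0.683 and Spearman's rho = 0.640. Both had a permutation p of 1e-05, the smallest that 100000 permutations can give. Batch 5 was left out because it held 1 rat. Without the 2 rats farthest from the median of Penk, r was 0.662 (n = 78). Leaving out 1 rat at a time gave r between 0.659, without male rat 16 of batch 4, and 0.716, without female rat 35 of batch 4. Before sex and batch were removed, r was 0.744 and rho was 0.722. The between-rat residual SD was 0.50 for Penk and 0.56 for Sst, and that of their difference was 0.43, smaller than either. The shared variance was 46.6%.

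The relation was present in each batch. In batch 2, r was 0.633 (n = 15, permutation p = 0.0113, adjusted p = 0.0141), in batch 3 it was 0.586 (n = 22, permutation p = 0.00402), in batch 4 it was 0.713 (n = 27, permutation p = 1e-05), and in batch 6 it was 0.789 (n = 16, permutation p = 0.0002). The corresponding rho values were 0.525, 0.446, 0.687 and 0.75, with adjusted permutation p of 0.0486, 0.0441, 0.00034 and 0.00215. Without the 2 farthest rats of each batch, r was 0.457, 0.487, 0.624 and 0.672. In males, r was 0.748 and rho 0.705 (n = 41), and in females r was 0.629 and rho 0.583 (n = 39). The difference between the sexes was 0.23 on the Fisher z scale, with a permutation p of 0.378. Adjusted p values were computed over a family of 20 tests, the r and rho of 10 sets of rats.

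In the deposited table, rat identifiers follow each other alphabetically in 3 successive blocks, called runs here, whose meaning the labels do not give. Run 1 held all 15 rats of batch 2 and 7 of batch 3, run 2 held 12 rats of batch 3, and run 3 held the remaining 3 of batch 3 with batches 4, 5 and 6. In run 1, r was 0.620 and rho 0.538 (n = 22), and in run 3, r was 0.715 and rho 0.683 (n = 46). In run 2, r was 0.599 (n = 12, permutation p = 0.0462, adjusted p = 0.0486), while rho was 0.371 (permutation p = 0.233). Without its 2 farthest rats, r in run 2 was 0.129, so the relation there rested on those rats.

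The relation was also present with measures of library quality in the fit. With the recovered depth as a covariate, r was 0.702 (n = 68). It was 0.680 with genes at 0 as a covariate, and without the rats with over 1000 genes at 0 it was 0.663 (n = 71). With the first 10 principal components of the residual expression of all genes as covariates, r was 0.638. Those components held 34.8% of the residual variance of all genes, 26% of that of Penk and 37.7% of that of Sst. Component 1, which held 7.62% of the variance of all genes, was correlated with Sst (r = 0.372, rho = 0.366, adjusted permutation p = 0.0154 for both). For Penk the same component had r = 0.159 and rho = 0.107 (adjusted permutation p = 0.403 and 0.668). The difference between these 2 correlations was not tested. Component 9 held 7.55% of the residual variance of Penk and 14.7% of that of Sst, against 2.52% and 13.8% for component 1. Its correlations were not tested. Across the 19 relations that were tested, neither depth nor the number of genes at 0 passed an adjusted p of 0.05 with either transcript.

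**Figure D2:**
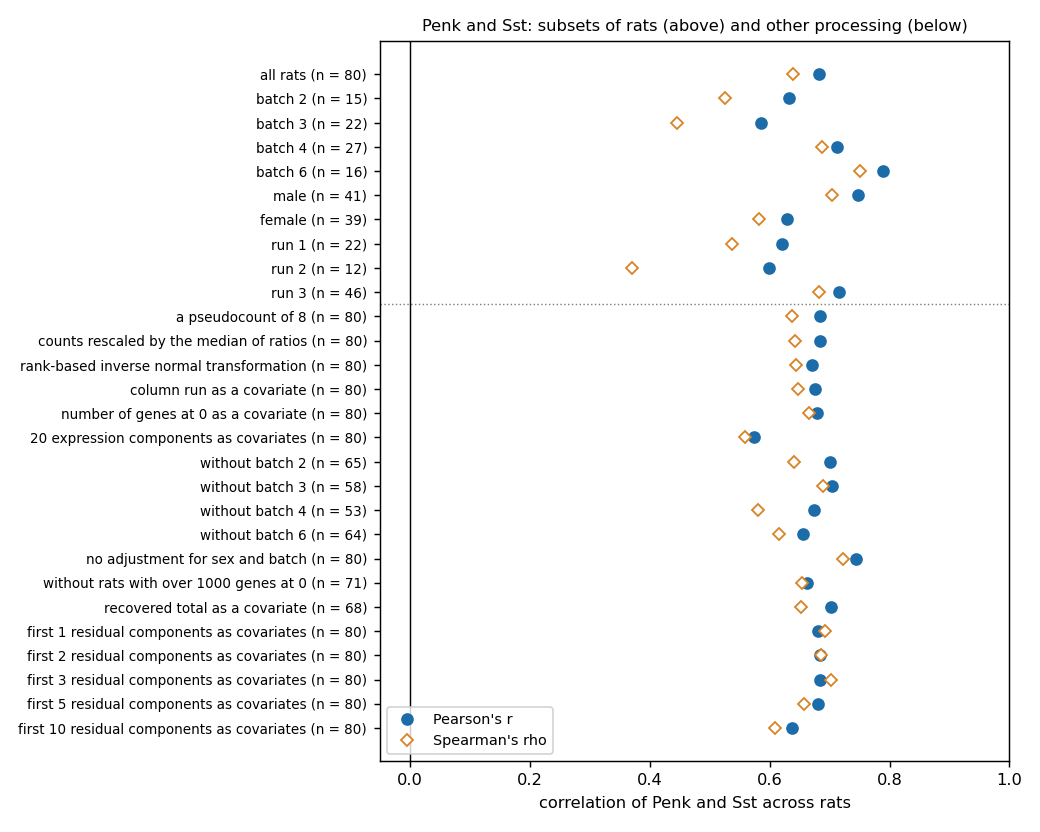
Correlation of Penk and Sst across rats (horizontal axis, no unit) as Pearson's r (filled circles) and Spearman's rho (open diamonds), for subsets of rats above the dotted line and other processing below it. All points lie above 0, with rho in run 2 the lowest at 0.371.

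The relation was then placed among the other genes whose log2 value averaged 5 or more, which numbered 13359 for each member. Sst ranked 4 from the top in its r with Penk, and Penk ranked 2 from the top in its r with Sst. The middle of the distribution lay close to 0 for both. For Penk the median r was -0.011 with quartiles of -0.115 and 0.0976, and 4.6% of genes had an r beyond 0.3 in either direction. For Sst the median was -0.017 with quartiles of -0.191 and 0.179, and 20.5% of genes were beyond 0.3. An r over 0.5 was found for 30 genes with Penk and 34 genes with Sst, and an r under -0.5 for 12 and 13 genes. The gene most like Penk was ENSRNOG00000006204 (r = 0.741, and 0.573 with Sst), followed by ENSRNOG00000003453 (r = 0.723). The gene most like Sst was also ENSRNOG00000003453 (r = 0.703). After it and Penk came ENSRNOG00000000010 (r = 0.658, and 0.583 with Penk). The most opposite gene was ENSRNOG00000017765 for Penk (r = -0.629) and ENSRNOG00000002579 for Sst (r = -0.576). These genes are given by identifier because the reference used here did not pair them with symbols.

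**Figure D3:**
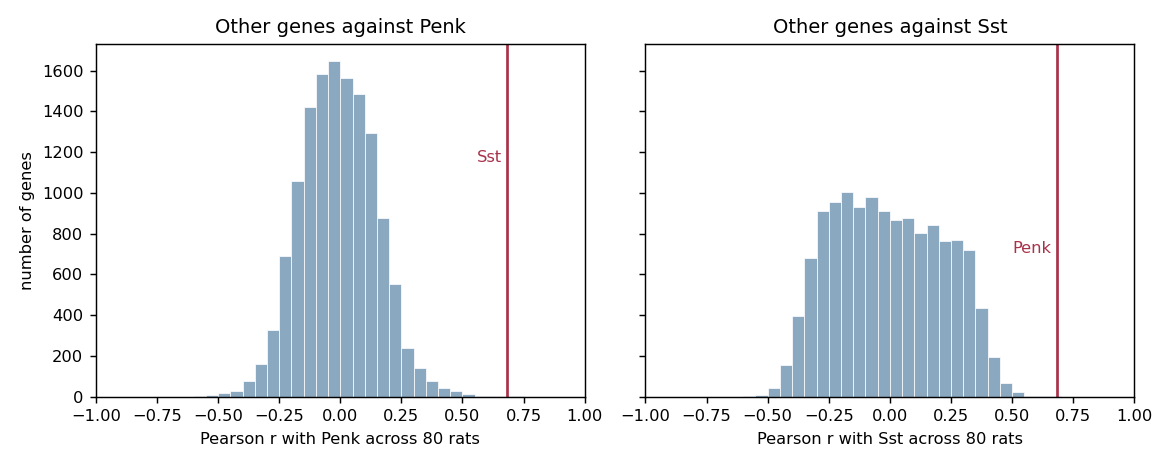
Number of genes (vertical axis) by their Pearson's r with Penk (left) and with Sst (right) across 80 rats after sex and batch, for 13359 other genes each. The vertical line marks the other member at 0.683, at the far right of both distributions, and the distribution is wider for Sst than for Penk.

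In a limma fit with 1 member as a covariate beside sex and batch, Sst rose by 0.77 log2 units per log2 unit of Penk (SE 0.095, adjusted p = 2.44e-08). At an adjusted p under 0.05, 1.27% of all genes changed with Penk, namely 0.788% with a positive slope, Sst among them, and 84 genes with a negative slope. Penk rose by 0.61 per log2 unit of Sst (SE 0.074, adjusted p = 3.60e-08), and 17% of all genes changed with Sst, 8.77% with a positive slope, Penk among them, and 1441 genes with a negative slope. By p value, Sst ranked 4 among the genes tested against Penk, and Penk ranked 2 among those tested against Sst. The count was smaller when the other member was also in the fit, at 19 genes for Penk and 1897 for Sst. With the first 20 components of the expression table as covariates, the counts were 79 for Penk (0.451% of genes) and 8 for Sst (0.0457%). Their order was turned there, in a setting whose covariates were computed from the same expression values. Leaving out 1 batch also moved the counts, to 30 for Penk without batch 4 and to 706 and 832 for Sst without batch 2 and without batch 3. The difference between the 2 counts was not tested.

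Both transcripts varied more between rats than most genes of similar normalized count. The residual SD of Penk, 0.50, was at percentile 94 of 1977 genes whose mean log2 value lay within 0.5 of its own, and the median of those genes was 0.265. The residual SD of Sst, 0.56, was at percentile 89.7 of 1392 genes, whose median was 0.353. With the other member as a covariate, the SD was 0.368 for Penk and 0.415 for Sst.

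The comparison of the sexes showed no difference at an adjusted p under 0.05 for either peptide. Penk was 7.57 ± 0.61 in 41 males, with a lowest, median and highest value of 6.29, 7.65 and 8.97. In 40 females it was 7.52 ± 0.50, with 6.36, 7.66 and 8.60. Sst was 6.48 ± 0.60 in males, with 5.13, 6.55 and 7.75, and 6.48 ± 0.67 in females, with 4.91, 6.61 and 7.90. The 2 sexes overlapped over nearly their whole ranges. Adjusted for batch, males minus females was -0.02 for Penk (SE 0.112, 95% interval -0.24 to 0.20, limma adjusted p = 0.998). It was -0.04 for Sst (SE 0.127, 95% interval -0.30 to 0.21, limma adjusted p = 0.998). As folds of males over females, the intervals ran from 0.845 to 1.15 for Penk and from 0.815 to 1.16 for Sst. Among all genes, 0.131% were called. Within batches 2, 3, 4 and 6, the difference was 0.16, -0.11, -0.10 and 0.11 for Penk and 0.02, -0.22, 0.08 and -0.06 for Sst, none past the threshold. The same limma tests called 0.0514%, 0.0514%, 0.0799% and 0.0628% of all genes. A test of whether the sex difference varied between batches gave an adjusted p of 1.0 for both genes. That limma test called 0 of 17512 genes, with 306 at an unadjusted p under 0.05.

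Among batches 2, 3, 4 and 6, both peptide transcripts were lowest on average in batch 6. Penk was 7.88 ± 0.56 in batch 2 (SD, n = 15), with a lowest, median and highest value of 6.86, 8.0 and 8.97. It was 7.67 ± 0.40 in batch 3 (n = 22), with 7.0, 7.70 and 8.60, and 7.56 ± 0.52 in batch 4 (n = 27), with 6.58, 7.55 and 8.65. In batch 6 it was 7.08 ± 0.53 (n = 16), with 6.29, 7.14 and 7.97. The ranges overlapped, and 13 of the 16 batch 6 rats lay below 7.70, the median of batches 2, 3 and 4 together.

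Sst was 6.71 ± 0.46 in batch 2, with a lowest, median and highest value of 5.83, 6.75 and 7.44. It was 6.76 ± 0.46 in batch 3, with 5.78, 6.72 and 7.90, and 6.47 ± 0.67 in batch 4, with 4.91, 6.48 and 7.75. In batch 6 it was 5.91 ± 0.56, with 5.13, 5.84 and 7.27. Here 15 of the 16 batch 6 rats lay below 6.71, the median of the other 3 batches, although the single lowest rat was in batch 4. The difference Penk minus Sst was 1.17 ± 0.45, 0.90 ± 0.40, 1.09 ± 0.47 and 1.17 ± 0.36 in batches 2, 3, 4 and 6.

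**Figure D4:**
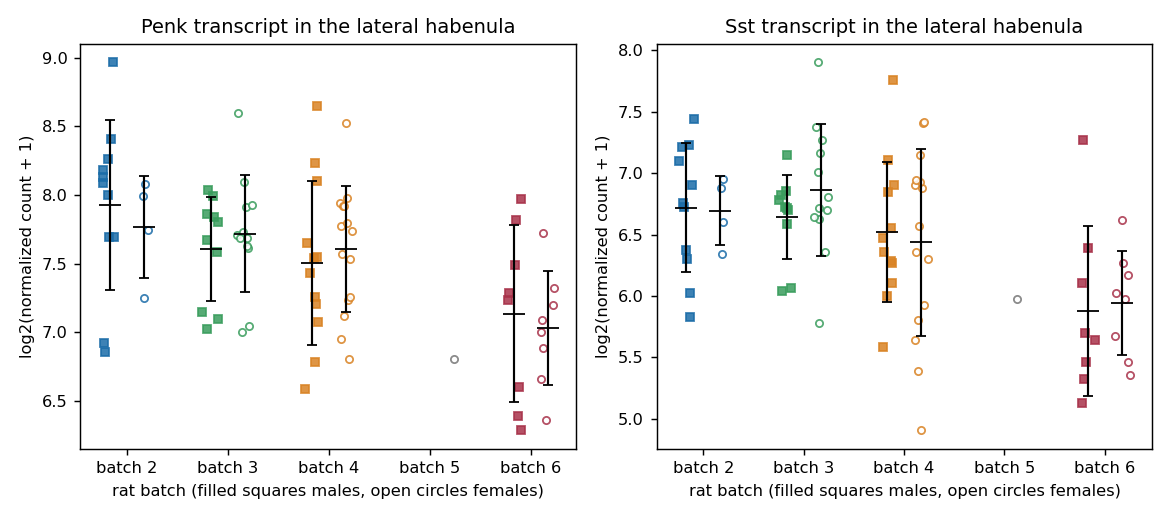
Penk (left) and Sst (right) as log2(normalized count + 1) by rat batch, with each rat as a point, males as filled squares and females as open circles. Horizontal bars and whiskers are the mean ± SD of each sex in a batch, and batch 5 is 1 rat. Among batches 2, 3, 4 and 6, both transcripts were lowest on average in batch 6, with ranges that overlap.

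In limma's F-test over the 4 batches, adjusted for sex, the fitted batch means spanned 0.81 for Penk (adjusted p = 0.000388) and 0.85 for Sst (adjusted p = 0.000163). However, 65.3% of all genes were called by the same test, so such a call is the usual result in this table. From batch 2 to batch 6, Penk fell by 0.81 (SE 0.178, 0.572-fold, limma adjusted p = 0.000146) and Sst fell by 0.81 (SE 0.201, 0.570-fold, limma adjusted p = 0.000677), where 42.4% of genes were called. From batch 3 to batch 6, Penk fell by 0.58 (SE 0.161, limma adjusted p = 0.00121) and Sst fell by 0.85 (SE 0.182, limma adjusted p = 4.18e-05), where 59.2% were called. From batch 4 to batch 6, Penk fell by 0.48 (SE 0.154, limma adjusted p = 0.0482) and Sst fell by 0.56 (SE 0.175, limma adjusted p = 0.0406), where 6.04% were called. With the first 20 expression components as covariates, the F-test was lost for both genes (limma adjusted p = 0.984 and 0.621). In that setting it called 0.114% of all genes. The components were computed with sex and batch differences left in the values, so this setting cannot separate batch from them. Batch 6 minus batch 2 was then 0.0038 for Penk (SE 0.447) and 0.67 for Sst (SE 0.453). Batch 6 minus batch 3 was 0.11 (SE 0.425) and 0.68 (SE 0.430), while batch 6 minus batch 4 was -0.028 (SE 0.178) and -0.14 (SE 0.181).

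The other 3 contrasts did not pass for either gene. Batch 4 minus batch 2 was -0.33 for Penk (SE 0.161, 95% interval -0.65 to -0.01) and -0.25 for Sst (SE 0.182, -0.61 to 0.11), with 33.9% of genes called. Batch 4 minus batch 3 was -0.11 for Penk (SE 0.140, -0.39 to 0.17) and -0.29 for Sst (SE 0.159, -0.61 to 0.03), with 54.9% called. Batch 3 minus batch 2 was -0.22 for Penk (SE 0.167, -0.55 to 0.11) and 0.04 for Sst (SE 0.189, -0.34 to 0.42), with 7.44% called. Their limma adjusted p values lay between 0.106 and 0.924.

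Batches 2 and 6 have no column run in common, so batch and run cannot be told apart in that contrast without the rats of batch 3. With the run as a covariate, batch 6 minus batch 2 was -0.86 for Penk (limma adjusted p = 0.0757) and -1.04 for Sst (limma adjusted p = 0.0573), where 33% of genes were called. Batch 6 minus batch 3 was -0.46 (limma adjusted p = 0.228) and -0.82 (limma adjusted p = 0.0514), where 39.3% were called. In the same fit the F-test over batches still passed for Penk (limma adjusted p = 0.0255) and Sst (limma adjusted p = 0.0244), with 35.3% of genes called. Batch 6 minus batch 4 also passed there, at -0.48 for Penk (limma adjusted p = 0.0387) and -0.56 for Sst (limma adjusted p = 0.0321), with 9.12% called. All rats of batches 4 and 6 stand in run 3, so the contrast between them lies within 1 run. Refitted on those rats alone, which are the same rats and so no separate check, batch 6 minus batch 4 was -0.48 for Penk (SE 0.161, limma adjusted p = 0.0492) and -0.57 for Sst (SE 0.196, limma adjusted p = 0.0554), with 10% of genes called. In the fit over all 80 rats with genes at 0 as a further covariate, it was -0.45 for Penk (limma adjusted p = 0.115) and -0.49 for Sst (limma adjusted p = 0.120). That setting called 1.67% of genes for this contrast, against 6.04% without the covariate. Within batch 3, run 2 minus run 1 was 0.36 for Penk (SE 0.161, limma adjusted p = 0.102) and 0.46 for Sst (SE 0.209, limma adjusted p = 0.115), with 23% of genes called.

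No single rat stood far apart in the groups that were tested. The authors had already removed outliers in principal components of expression. Dixon's critical value was applied in the 4 groups of 1 sex and batch that held 4 to 10 rats. The highest and lowest values of Penk, Sst and their difference were set against it, and 0 of 12 sets passed it. Larger groups were not tested, namely males of batches 2 and 4 and females of batches 3 and 4. They hold male rat 41 of batch 2, female rat 10 of batch 3, and male rat 16 and female rats 34 and 35 of batch 4.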

How the data were processed

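Polyadenylated RNA of the LHb from 81 HS rats was analysed. Per the study's methods, the authors trimmed reads with cutadapt, obtained estimated counts from RSEM run on the Ensembl transcriptome of the rat, scaled them to the upper quartile with DESeq2 and removed low-count libraries and genes. The labels name the build Rnor_6.0. Versions of these tools are not given in the sources used here. The deposited values are log2 of the scaled count after a pseudocount of 1. A difference on this scale slightly understates the change of low genes, and reads shared between similar transcripts were divided by estimation. All columns were matched to samples by title, and 0 were left unmatched. Depth was recovered from the gaps and doubled values among the low whole numbers (within 1% of the truth in all 75 of 81 simulated libraries that were resolved).

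limma 3.58.1 (lmFit, eBayes with trend; R 4.3.3) was run over 17512 genes in 80 rats, with sex and batch as terms, two-sided or F-tests, and Benjamini-Hochberg adjustment at 0.05. Batch 5, with 1 rat, was left out of the fits. Correlations were computed on residuals after sex and batch with two-sided tests of 100000 permutations. The fits and correlations were tested on simulated data. Alternatives were a pseudocount of 8, rescaling by the median of ratios, a rank-based inverse normal transformation, a mean log2 filter of 5, covariates for column run, genes at 0 and 20 expression components, and leaving out each batch. Fits within batches and runs, depth, genes above 1000 at 0 and residual components were added after seeing the data. Other steps used scipy 1.17.1, pandas 2.3.3, numpy 2.4.6 and matplotlib 3.10.9 in Python 3.11.15.

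Penk and Sst and all gene lists were chosen with earlier results of these data known. Penk, Sst and the 10 genes most like each were to be named. Because the reference used here matched 0 identifiers, only the first of those genes are given, as identifiers, and 19 lists of pathway and cell type genes were not analysed here.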

Additional observations from a re-analysis of the deposited data

How the results depend on the processing

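The correlation of Penk and Sst kept its direction and stayed past the threshold by Pearson's r under all 25 alternatives, with r from 0.574 (20 expression components) to 0.789 (batch 6 alone), and from 0.659 to 0.716 when 1 rat was left out at a time. The cause was not tested for any of the following changes. The sex difference was past the threshold under none of the alternatives. For Penk it turned positive with 20 components (0.22, SE 0.528, against an SE of 0.112 in the main fit). It was also positive for Penk without batch 3 (0.018), without batch 4 (0.023) and within batches 2 (0.16) and 6 (0.11). For Sst it turned positive without batch 3 (0.027) and within batches 2 (0.024) and 4 (0.084). Without batch 6 the batch test was lost for both genes, while 54.5% of all genes were still called. The range of batch means was then 0.34 for Penk (limma adjusted p = 0.164) and 0.29 for Sst (limma adjusted p = 0.22). With 20 components the batch test was lost for both as well, but there only 0.114% of all genes were called. The range was then 0.14 for Penk (limma adjusted p = 0.984) and 0.82 for Sst (limma adjusted p = 0.621). In that setting, for Penk and Sst in turn, batch 4 minus batch 2 became 0.032 and 0.81, and batch 6 minus batch 2 became 0.0038 and 0.67. Batch 4 minus batch 3 became 0.14 and 0.82, and batch 6 minus batch 3 became 0.11 and 0.68. Each of these contrasts called 1 of 17512 genes there. Batch 3 minus batch 2 of Sst turned to -0.21 with the column run and within run 1, -0.091 with genes at 0 and -0.0077 with 20 components, and batch 4 minus batch 3 of Penk to 0.013 with the column run. Without batch 2, batch 6 minus batch 4 was -0.48 for Penk and -0.56 for Sst, the same size as with it, at limma adjusted p = 0.0509 and 0.0552. There 4.33% of all genes were called. The number of genes that changed with Penk, 222, was 79 with 20 components, 51 without batch 2, 30 without batch 4, 90 without batch 6 and 19 with Sst in the fit. For Sst, 2977 became 1690 with the column run, 1821 with genes at 0, 8 with 20 components, 706 without batch 2, 832 without batch 3, 1888 without batch 6 and 1897 with Penk in the fit. The residual SD of Penk was 0.449 with 20 components and 0.368 with Sst in the fit, and that of Sst was 0.45 with 20 components, 0.495 without batch 4 and 0.415 with Penk in the fit. After the rank transformation the SD is on another scale and was not compared. No paired analysis was possible because each rat gave 1 sample and its number has no partner in another group. The marker-list relations and their alternatives were not run, since the identifiers were not paired with symbols here. Depth limits the rats with the fewest reads most, where counting error reached 0.186 for Penk and 0.282 for Sst on the log2 scale.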

Other observations

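The single rat of batch 5, a female, entered none of the fits or correlations and is counted only in the values over all rats or all females. Its Penk was 6.81 and its Sst was 5.98, or 111 and 62 normalized counts, with a Penk minus Sst difference of 0.83. Its Penk lay within the ranges of batches 4 and 6 and below those of batches 2 and 3, and its Sst lay within the ranges of batches 2, 3, 4 and 6.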
